A study of Mus musculus with 6 samples.

Results

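Glycam1, the gene of glycosylation dependent cell adhesion molecule 1, was measured by 3 of the 2156 probes whose names the files of a custom array give, which hold antisense probes for 445 genes and a sense probe for 398 of them. One probe read the sense strand, and the other 2 were artificial antisense sequence (AFAS) probes, which carry the complement of the mRNA sequence and detect labelled cDNA of RNA from the opposite strand. The AFAS probes were found by symbol. The sense probe carried another accession and no symbol, and it was linked to Glycam1 because it lay next to the AFAS probes in the value table, while its description spelled out the gene's full name. The gene was chosen by measured values of this comparison, above all the low tumor signal of an AFAS probe, so its tumor and normal signals are given as a description and were not tested.

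Glycam1 encodes a small mucin-like glycoprotein. The secretory epithelium of the mammary gland makes it in pregnancy and lactation under prolactin and releases it into milk, and the high endothelial venules of lymph nodes make it as a sulfated ligand of L-selectin, the homing receptor of lymphocytes. A mammary sample can therefore hold Glycam1 RNA from the epithelium, and from a lymph node left in the tissue.

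The samples were 4 mammary tumors and 2 normal mammary glands of GRS/A mice, in which mouse mammary tumor virus causes such tumors. No treatment, age or allele is given for either group, and nothing says whether the samples came from separate mice, so the p-values below measure the spread between these samples, which may be technical. The extraction protocol in the labels of all samples names brain, whereas titles and methods name mammary tissue. Total RNA was labelled with Cy3 by random priming and hybridised to 1-colour arrays of 60-base probes, and each value is a scaled signal with a floor of 5. Tumors 3 and 4 shared 1 of the 3 slides that held the tumors. For the normal glands the scanner output was not used here, and the slide could not enter any fit. These are bulk samples, in which fewer cells of a type and less RNA per cell cannot be told apart.

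Both AFAS probes are shown because the tumor and normal samples stood farthest apart on them. The capitals in the start AFAS probe mark the complement of the first ATG of the transcript.
Glycam1 start AFAS probe: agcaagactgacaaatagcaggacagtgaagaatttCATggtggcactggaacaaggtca
Glycam1 other AFAS probe: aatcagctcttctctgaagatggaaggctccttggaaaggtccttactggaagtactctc
The complement of the start AFAS probe begins at base 30 of the transcript, and its first 21 bases lie at chr15:103565032-103565052 of GRCm38.p6, inside Glycam1, which RefSeq places on the minus strand of chromosome 15 from 103562759 to 103565081. The ATG follows at base 51. The GC content was 45.0% for the start AFAS probe, 46.7% for the other AFAS probe and 46.7% for the sense probe. No run of more than 6 bases of any of the 3 probes was complementary to another of them, so sense and AFAS probes overlap by no more than 6 bases. Of the 3 probes, only the start AFAS probe was placed in the gene.

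The sense signal of Glycam1 was 11866, 9532, 5396 and 9240 in tumors 1 to 4, and 5197 and 4105 in normal glands 1 and 2. Every tumor lay above both normal glands, but tumor 3 exceeded normal gland 1 by only 199, less than the error of 540 that the scanner software gave for its spot. The tumors averaged 9009 ± 2680 (SD, n = 4) and the normal glands 4651 ± 772 (SD, n = 2), and mean log2 signals differed by 0.91. The median difference over all 404 sense probes was also 0.91, and 201 of them had a lower difference than Glycam1. Every tumor lay above both normal glands for 42.6% of sense probes and below both for 3.47%. The sense difference of Glycam1 kept its sign under the other scalings tried, at 0.51, 0.64 and 0.73 with scaling to the 75th percentile, to the median and with quantile normalization, where the medians of all sense probes were 0.51, 0.64 and 0.50. With a floor of 20 it was 0.91 against a median of 0.74.

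The start AFAS probe of Glycam1 gave signals of 135, 268, 76.8 and 154 in tumors 1 to 4, and of 868 and 329 in normal glands 1 and 2. Every tumor was below both normal glands, with tumor 2 closest to normal gland 2. The means were 158 ± 80.0 (SD, n = 4) and 598 ± 381 (SD, n = 2), and the difference of mean log2 signals was -1.89. The probe was well above background in 4 of 4 tumors, although the software did not find its spot by itself in tumor 3.

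The other AFAS probe gave 13.1, 5, 24.3 and 5 in tumors 1 to 4, against 442 and 73.1 in normal glands 1 and 2. Tumors 2 and 4 were at the floor, so their values are not measured levels. The software flagged the signal of tumor 1 as positive and significant but not as well above background. The probe was well above background in tumor 3 alone. The difference of mean log2 signals was -4.25, which rests on the floor and became -3.10 with a floor of 20. Of 1750 AFAS probes, 4 had a lower difference than this probe, a place that rests on the floor as well. A lower difference than that of the start AFAS probe was found for 55, while the median over all AFAS probes was 0.44. Every tumor was below both normal glands for 6.91% of AFAS probes and above both for 21.6%.

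**Figure D1:**
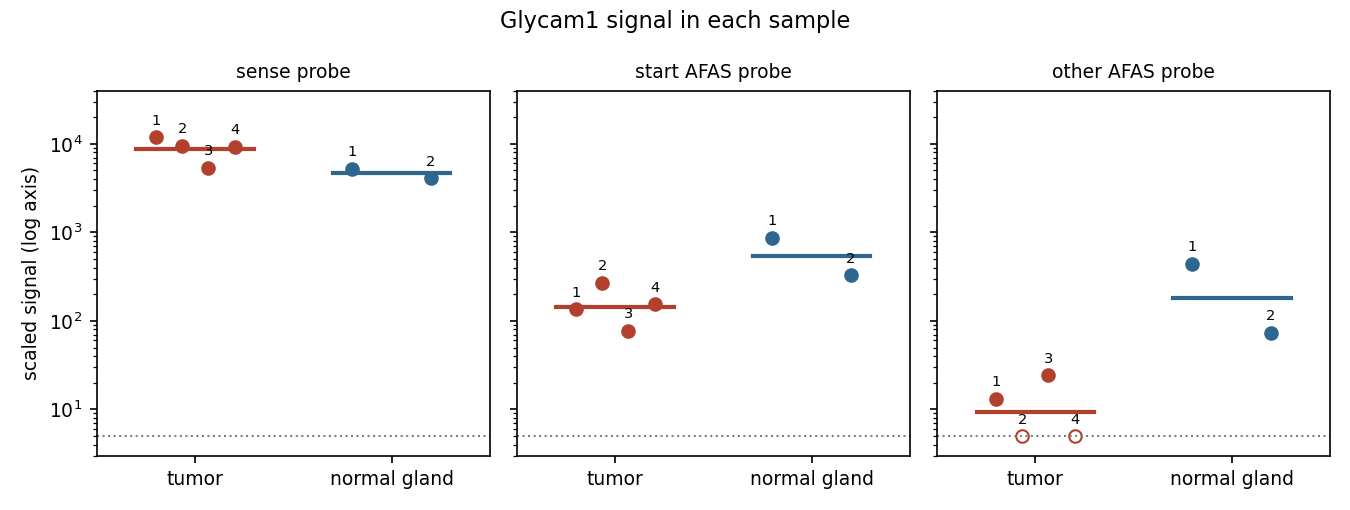
Scaled signal of the 3 Glycam1 probes (log axis) in 4 tumors and 2 normal glands, numbered by replicate; horizontal bars are means of log2 signals, the dotted line is the floor of 5 and open circles are values at it. The sense signals of tumors lie above those of the normal glands, with tumor 3 at 5396 beside normal gland 1 at 5197, and both AFAS probes lie lower in every tumor.

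The normal glands differed from each other on the antisense side. Normal gland 1 had 6.04 times the signal of normal gland 2 on the other AFAS probe and 2.64 times on the start AFAS probe, against 1.27 times on the sense probe. Among the tumors, tumor 3 had the lowest sense signal and the lowest start AFAS signal but the highest signal on the other AFAS probe. The SD of the log2 signal over the 4 tumors was 0.48 for the sense probe, 0.74 for the start AFAS probe and 1.12 for the other AFAS probe. A smaller SD was found for 22.0% of sense probes, and for 38.3% and 70.6% of AFAS probes in the order of the AFAS probes just given. The SD of the other AFAS probe rests on the 2 values at the floor and was 0.14 with a floor of 20 and 0.39 with normexp background correction, which gave 0.35 for the start AFAS probe. Without tumor 3 the SD of the sense probe was 0.20.

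For signals above the floor, the difference between strands within an array does not depend on the scale factor of that array. Sense minus start AFAS, in log2 signal, was 6.46, 5.15, 6.13 and 5.91 in tumors 1 to 4, and 2.58 and 3.64 in normal glands 1 and 2. Sense minus the other AFAS probe was 9.82, 10.90, 7.80 and 10.85 in the tumors, and 3.56 and 5.81 in the normal glands. Of these tumor values only that of tumor 3 had both probes well above background, since those of tumors 2 and 4 were set by the floor and that of tumor 1 used an AFAS signal not well above background. The groups did not overlap on the difference to the start AFAS probe, which changed by 2.80 between the group means. The change for the other AFAS probe was 5.16 with the floor of 5 and 4.01 with a floor of 20, and is no measured size. The median change was 0.42 over the 1597 AFAS probes that had a sense probe of the same gene, and for 25.4% of them the difference was higher in every tumor. The size of such a difference in 1 array also depends on how well each probe binds, so only its change between arrays can be read.

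**Figure D2:**
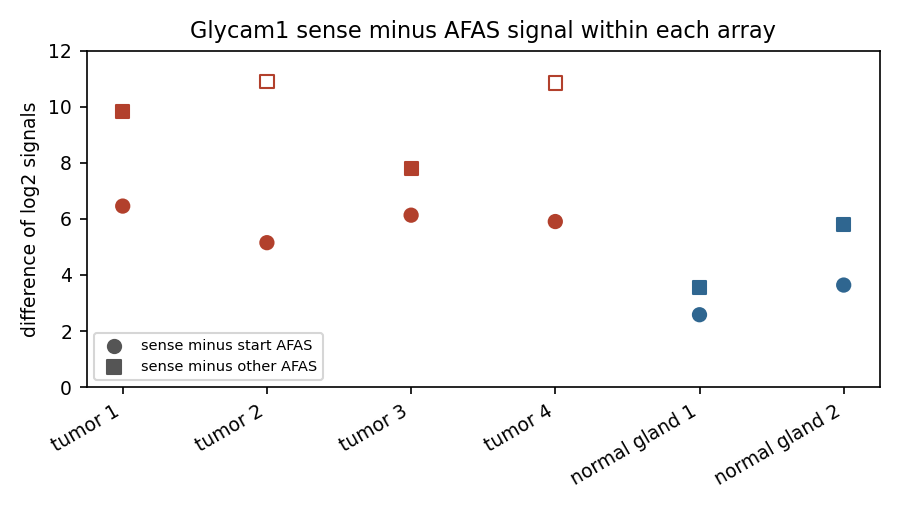
Difference of log2 signals, sense minus start AFAS (circles) and sense minus other AFAS (squares), for Glycam1 in each tumor (red) and normal gland (blue); open squares have the AFAS signal at the floor of 5, so that the floor sets their height. The circles lie from 5.15 to 6.46 in tumors and at 2.58 and 3.64 in normal glands, and the square of tumor 3, the 1 tumor with both probes well above background, lies at 7.80 against 3.56 and 5.81 in normal glands.

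Of 398 genes with probes for both strands, the sense probe was higher in every tumor for 170. Among these, 45 genes had at least 1 AFAS probe that was lower in every tumor, and 10 had at least 2. For 2 genes, all AFAS probes were lower in every tumor. These were Glycam1 and Tsg101, which encodes a subunit of the ESCRT complex of endosomal sorting, and each had 2 AFAS probes. The sense difference of Tsg101 was 1.27 and the median of its AFAS differences was -1.88, on the log2 scale, against 0.91 and -3.07 for Glycam1. With a floor of 20 these AFAS medians were -1.63 and -2.50, so their sizes depend on the floor. This count was made, and Tsg101 named, after the values had been seen, and genes with more AFAS probes had more chances to fail it.

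**Figure D3:**
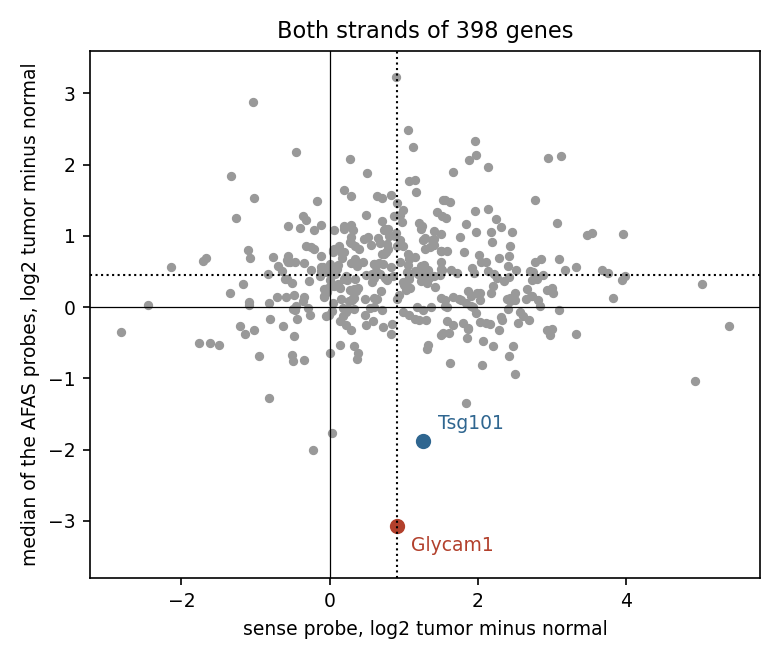
Tumor minus normal difference of mean log2 signals of the sense probe (horizontal axis) and the median of that difference over a gene's AFAS probes (vertical axis) for 398 genes, with medians over the genes as dotted lines. Glycam1 lies at 0.91 and -3.07, on the median of the sense axis and lowest on the AFAS axis. With a floor of 20 its AFAS median was -2.50, still the lowest. Glycam1 was chosen for a low AFAS signal, so this place is no support, and its median is over only 2 probes. Tsg101 lies at 1.27 and -1.88.

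The sense probes of other genes with the profile nearest to that of Glycam1 were those of Psen2, a catalytic subunit of gamma-secretase, Mapk14, the stress kinase p38 alpha, and Bmpr1a, a receptor of bone morphogenetic proteins. Their root mean square distances over the 6 samples, between log2 signals centred on each probe's mean, were 0.22, 0.23 and 0.24, against a median of 0.74 over 349 sense probes above the floor in both normal glands. For each, tumor 3 was the lowest tumor, as on the Glycam1 sense probe, which their choice by nearness brings with it. For the other AFAS probe of Glycam1, the nearest were an AFAS probe of Eps8, a substrate of the EGF receptor, at 1.16 and 2 AFAS probes of Adora3, an adenosine receptor, at 1.30 and 1.32, with a median of 2.39 over 1095 AFAS probes. These distances and their order rest on the floor, at which the other AFAS probe lay in tumors 2 and 4, and on probes kept for their signal in the normal glands alone. With a floor of 20, tried after seeing the data, the nearest were AFAS probes of Fcgr2b, Tsg101 and Por at 0.72, 0.81 and 0.81, and Eps8 and the start AFAS probe of Glycam1 both lay at 0.90. Eps8 read 159, 239, 492 and 98.3 in tumors 1 to 4, and 1451 and 1033 in the normal glands, a pattern that its choice by nearness fixed.

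Of 33 milk and secretory genes listed, 2 were among the named probes, and the caseins, Wap and Lalba, which define milk secretion, were not among them. Clu, the secreted chaperone clusterin, read 14258, 42648, 9562 and 61287 in tumors 1 to 4, and 19379 and 9596 in the normal glands. Its groups overlapped, and its difference of 0.84 did not pass the test (SE 0.83, adjusted p = 0.508 by limma). The Clu difference ranged from 0.33 to 1.35 with 1 sample left out. Cd14, the lipopolysaccharide co-receptor, read 1608, 2013, 75.4 and 319 in tumors and 103 and 67.5 in normal glands. Tumor 3 lay between the normal glands, and the difference of 2.66 did not pass (SE 1.28, adjusted p = 0.169 by limma). Tumors 2 and 4 were the highest on Clu, and tumors 1 and 2 were the highest both on Cd14 and on Glycam1 sense signal. Cd14 is also on the list of macrophage markers, and which cells gave its signal was not tested.

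Prolactin acts on the secretory cell through its receptor, Jak2 and Stat5, together with glucocorticoid and progesterone receptors. Of the 11 genes of the prolactin, progesterone and glucocorticoid list with a sense probe, 3 rose in tumors and none fell, against 14.4% of all sense probes called higher and 0.248% called lower by limma. They were Nr3c1, the glucocorticoid receptor, Gata3, a transcription factor of luminal cells, and Erbb3, a receptor of neuregulins. Nr3c1 read 1206, 1150, 1076 and 943 in tumors 1 to 4, against 407 and 149 in normal glands, and rose by 2.14 on the log2 scale (SE 0.52, adjusted p = 0.0406 by limma). Gata3 read 8689, 2843, 3818 and 13713 in tumors and 1082 and 969 in normal glands, and rose by 2.55 (SE 0.70, adjusted p = 0.0483 by limma). Erbb3 rose by 1.98 (SE 0.51, adjusted p = 0.0414 by limma). The groups did not overlap for any of the 3 genes. None of the 3 calls held without tumor 1, tumor 4 or either normal gland, or under the other scalings. Those of Nr3c1 and Erbb3 were also lost without tumor 2 and that of Gata3 with a floor of 20, and the highest adjusted p over the alternatives run was 0.374 for each. The median difference over the list was 1.25, against 0.91 over all sense probes.

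Prlr, the prolactin receptor, is named after its values were seen. It read 7923, 1512, 3922 and 29641 in tumors 1 to 4, and 504 and 544 in normal glands. Its groups did not overlap, but the difference of 3.54 did not pass (SE 1.06, adjusted p = 0.0566 by limma). Tumor 4 had the highest Prlr signal and the third highest Glycam1 sense signal. The part of prolactin signalling in the Glycam1 values was not tested. On the antisense side, 1 of 58 AFAS probes of this list was called higher, that of Pim1, a kinase induced by cytokine receptors, and none lower, against 0.457% of all AFAS probes called higher and 0.0% called lower by limma. AFAS probes called lower numbered 8 without tumor 2 and 2 with quantile normalization. The Pim1 probe read 188, 270, 135 and 309 in the tumors and at the floor of 5 in normal glands 1 and 2, and its call was lost with a floor of 20 and when any sample other than tumor 2 was left out.

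Of 7 luminal and basal epithelial markers with a sense probe, 3 rose and none fell, beside the 14.4% and 0.248% of all sense probes. Besides Gata3 and Erbb3, which both lists hold, these included Krt18, a keratin of luminal cells, linked to its gene by place. Krt18 read 16267, 15531, 17987 and 40295 in tumors 1 to 4, against 2643 and 1591 in normal glands, and rose by 3.33 (SE 0.56, adjusted p = 0.0207 by limma). Tumor 4 stood apart from the other tumors. The call held under the other scalings, and leaving out tumor 1, tumor 4 or a normal gland ended it. The list's median was 2.31, against 0.91 over all sense probes, and the sum of its sense signals was 43805, 34351, 35526 and 131174 in the tumors, and 10593 and 8144 in the normal glands, with Krt18 the brightest probe and no member at the floor. The sense signal of Glycam1 was lower in tumor 4 than in tumor 1, whereas the marker sum was highest in tumor 4. The part of epithelial content in the Glycam1 values was not tested.

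**Figure D4:**
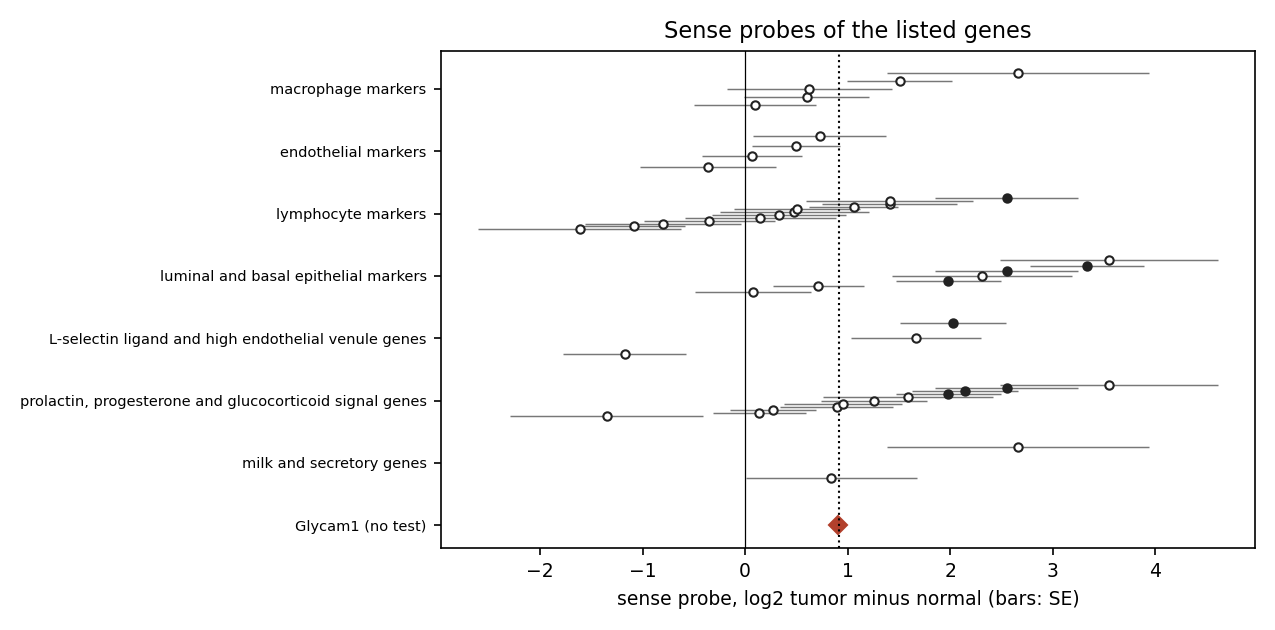
Tumor minus normal difference of mean log2 signals, with its SE, for the sense probes of the listed genes other than nervous tissue markers; filled circles passed the adjusted p threshold of 0.05 by limma, the dotted line is the median over all sense probes and the red diamond is Glycam1, which was not tested. Glycam1 lies at 0.91 on the dotted line, and 5 of the 7 epithelial markers lie to its right.

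Among genes of L-selectin ligands and high endothelial venules, 3 of 24 were among the named probes and 1 rose, beside 14.4% of all sense probes. Ltbr, the lymphotoxin beta receptor that maintains these venules, read 510, 415, 359 and 903 in tumors 1 to 4, against 143 and 111 in normal glands, and rose by 2.03 (SE 0.52, adjusted p = 0.0414 by limma). This call was lost under the other scalings and when any sample other than tumor 3 was left out. Lta, a lymphotoxin, had a difference of 1.67 (SE 0.64, adjusted p = 0.102 by limma) with every tumor above both normal glands. Selplg, a selectin ligand of leukocytes, had a difference of -1.17 (SE 0.60, adjusted p = 0.197 by limma). The named probes held none for the sense strand of the sulfotransferase Chst4 or of Madcam1, which define these vessels.

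Of 12 lymphocyte markers with a sense probe, Gata3 alone was called, beside 14.4% of all sense probes called higher, 4 of the 12 were higher in every tumor, beside 42.6% of all sense probes, and the list median was 0.40 against 0.91 over all sense probes. The sum of their signals was 32195, 41855, 19537 and 31806 in tumors 1 to 4, and 21642 and 15185 in the normal glands, with Cd4 the brightest and Cd40lg at the floor in both normal glands. Tumor 3 was the lowest tumor on the lymphocyte sum, as on 7 of the 8 list sums and on Glycam1 sense signal. The part of lymphocyte or lymph node content was not tested. None of 4 endothelial and none of 5 macrophage markers was called on the sense strand, where 14.4% of all probes were called higher. Their largest absolute differences were 0.73 for Pecam1, 0.49 for Kdr and -0.36 for Tie1 among endothelial markers. Among macrophage markers they were 2.66 for Cd14, 1.51 for Csf1r and 0.63 for Cd86. With 1 sample left out, the difference ranged from 0.43 to 1.14 for Pecam1, from 0.17 to 0.81 for Kdr and from 0.084 to 1.20 for Cd86. Without tumor 3, when 89 of all sense probes were called, Cd14 and Csf1r passed (adjusted p = 0.0293 and 0.0399 by limma). On the AFAS side, 1 of 22 endothelial and 1 of 26 macrophage probes were called, beside 0.457% of all AFAS probes. None was called of 6 milk, 12 L-selectin, 31 epithelial, 58 lymphocyte and 11 nervous tissue AFAS probes. A probe of Thbd, the gene of thrombomodulin, rose by 3.76 (SE 0.43), and one of Cd86, a co-stimulatory molecule, rose by 5.98 (SE 0.66, both with adjusted p = 0.0273 by limma). The Cd86 probe was at the floor in normal gland 2, and its difference was 4.98 with a floor of 20. Both calls were lost when any sample other than tumor 2 was left out. With scaling to the 75th percentile both were lost as well (adjusted p = 0.0551 for Thbd and 0.0531 for Cd86 by limma). The Thbd call was also lost with median scaling (adjusted p = 0.0505 by limma). No adipocyte marker was among the named probes, so fat content could not be followed. Among nervous tissue markers, Drd4, a dopamine receptor, had a difference of -0.50 and was not called (adjusted p = 0.687 by limma).

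The 250 bases before the Glycam1 start site, at chr15:103565082-103565331 on the minus strand of GRCm38.p6, are shown because prolactin acts through Stat5, whose binding sites have the form TTCNNNGAA. The capitals mark the match.
Glycam1 promoter: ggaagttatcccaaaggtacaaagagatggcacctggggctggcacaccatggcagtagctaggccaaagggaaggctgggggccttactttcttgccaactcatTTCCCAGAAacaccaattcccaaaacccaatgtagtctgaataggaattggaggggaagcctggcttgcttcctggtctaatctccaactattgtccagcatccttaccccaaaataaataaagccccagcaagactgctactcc
The match, TTCCCAGAA, begins 145 bases before the start site. The form reads the same on both strands, and 7.18% of 27025 RefSeq promoters held it in the same window, as did 3.93% of 331 promoters of genes with named AFAS probes. TATAAA was not found on either strand in this window, whereas 13.0% of all promoters and 10.9% of those 331 held it. Only this exact stretch was searched for, not variants of it. A match is a stretch of letters, and no binding was measured.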

How the data were processed

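The authors deposited intensities, which are processed signals of Agilent Feature Extraction 9.1.3.1 multiplied by a constant for each array. Signals under 5, or not distinct from background, had been replaced by 5. Per the deposited scanner files, spot flags and errors were read for the 4 tumors. The scale factors recovered were 0.957, 0.822, 1.16 and 1.05, and matching the tumor signals gave a probe to 2154 of the 2156 entries of the value table. Values at the floor made up 0.881% to 12.9% of a tumor's entries and 24.4% and 31.1% of the normal glands', and the number of arrays limits the precision.

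The deposited signals were analysed as log2 values in limma 3.58.1 (R 4.3.3; lmFit and eBayes, two-sided), with Benjamini-Hochberg adjustment over 404 sense or 1750 AFAS probes and a threshold of 0.05. The step was tested on simulated data. Tables were made with Python 3.11.15. Of 404 sense probes, 318 were linked to a gene by accession, 4 by symbol and 76 by place. RefSeq tables of GRCm38.p6 gave names, coordinates and promoters; the build behind the probes is not given in the sources used here. No pair of samples shared more than 1 equal value above the floor.

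Glycam1 and the lists were chosen with earlier results of these data known. Named were all Glycam1 probes, all milk and L-selectin list members among the named probes, called members of other lists or the 3 with the largest absolute difference, and the 3 nearest profiles per strand. Some genes that this rule gives are not reported here. As alternatives, a floor of 20, other scalings, a filter at 100, limma with trend, the methods' t-test, the replicate block, normexp with an offset of 50 and each sample left out were tried.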

Additional observations from a re-analysis of the deposited data

Results flagged for a closer look

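Tumor 4 stood apart from the other tumors on the sense probe of Krt18, where its gap to the nearest tumor made up 0.846 of the range of log2 signals over the 4 tumors. On the AFAS probe of Thbd, tumor 2 stood below the others with a gap of 0.943 of the range. These were 2 of 24 probes examined, and chance gives such a gap in about 1 of 20. None of the 3 Glycam1 probes showed one.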

How the results depend on the processing

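The Glycam1 differences kept their direction under all settings run, among them each sample left out: the sense difference ranged from 0.74 to 1.14, the start AFAS difference from -2.59 to -1.19 and the other AFAS difference from -5.55 to -2.95 with 1 sample left out. The normal glands set the ends of both AFAS ranges. The groups did not overlap under 3 other scalings or a floor of 20. The SD over tumors ranged from 0.20 to 0.59 for the sense probe, 0.52 to 0.90 for the start AFAS probe and 0.80 to 1.32 for the other AFAS probe with 1 tumor left out. With normexp it was 0.35 for the start AFAS probe and 0.39 for the other AFAS probe, which had 0.14 with a floor of 20. The strand difference, nearest profiles and gene medians with a floor of 20 were computed after seeing the data.

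The calls of single genes depended on scaling, test and sample. The 59 sense probes called were 66 with a floor of 20, 78 with the filter, 79 with trend and robust estimation and, unadjusted and on linear signals, 64 with the methods' t-test. They became 17 with scaling to the 75th percentile, 17 with the median, 24 with quantile normalization, 0 and 1 with the methods' t-test on linear and log2 signals after Benjamini-Hochberg, and 122 unadjusted on log2 signals. The 8 AFAS probes called became 2 with the 75th percentile, 4 with a floor of 20, and 0 and 0 with the methods' t-test adjusted. Unadjusted, that t-test gave 159 on linear signals (74 higher and 85 lower) and 211 on log2 signals (180 higher and 31 lower). At an unadjusted p of at most 0.05 limma gave 155 sense and 284 AFAS probes. With 1 sample left out the counts ranged from 0 to 89 sense and from 0 to 15 AFAS probes. Leaving out tumor 4 or normal gland 2 gave 0 sense probes, leaving out tumor 1 gave 1, normal gland 1 gave 14 and tumor 3 gave 89. No AFAS probe was called without tumor 3, tumor 4 or either normal gland, and without tumor 2 limma called 7 higher and 8 lower. Quantile normalization gave 5 higher and 2 lower, and 11, 6 and 7 were called with median scaling, the filter and trend.

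The 5 list genes called on sense probes became 1 with each of the 75th percentile, median and quantile scalings, 0 with both adjusted t-tests, and 0 to 7 with 1 sample left out. The gene kept under those scalings was Krt18. The 3 list genes called on AFAS probes became 1 with the 75th percentile, 0 with both adjusted t-tests, 14 and 21 with the unadjusted t-test on linear and log2 signals, and 0 to 4 with 1 sample left out. The adjusted p over alternatives ranged from 0.00345 to 0.302 for Krt18, from 0.0287 to 0.374 for Nr3c1, from 0.0258 to 0.374 for Gata3, from 0.0289 to 0.374 for both Erbb3 and Ltbr, and from 0.0289 to 0.374 for Prlr. The cause was not tested.

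The labels number samples 1 and 2 in both groups. With the replicate number as a replicate block, the Glycam1 differences were 1.20, -1.49 and -4.47, and 0 sense probes, 0 AFAS probes and 0 list genes on either strand were called. The deviations of same-numbered samples correlated at -0.02 and 0.05. With only 2 normal glands the deviations of one mirror those of the other. These values therefore cannot show whether same-numbered samples came from the same mouse. Tie1 had 0.20 and Drd4 0.13 with the block, the reverse of their directions. With 1 sample left out they ranged from -0.66 to 0.10 and from -0.92 to 0.023, above 0 without tumor 3.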
